A study of Saccharomyces cerevisiae with 6 samples.

Results

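The cytosolic Hsp70 and Hsp110 family of the yeast Saccharomyces cerevisiae was examined as 10 genes fixed by their locus tags, among 5793 features of one RNA-Seq comparison. All 10 were present in the table: SSA1 (YAL005C), SSA2 (YLL024C), SSA3 (YBL075C), SSA4 (YER103W), SSB1 (YDL229W), SSB2 (YNL209W), SSZ1 (YHR064C), SSE1 (YPL106C), SSE2 (YBR169C) and FES1 (YBR101C). Heat-shocked cells (37 °C for 20 min) were compared with cells under optimal growth (28 °C), with 3 libraries in each group. Both groups were of strain BJ5464, labelled as deleted for URA3 and grown in rich medium. Both came from one culture that was split, and each group's libraries were made from aliquots, so the tests below measure the spread between aliquots and not between cultures. URA3, the gene labelled as deleted, was listed at a log2 mean CPM of 7.10, where CPM is the read count of a gene scaled to a fixed library total. The table holds 1 log2 fold change, 1 mean abundance and 1 p-value per gene, taken here as deposited, so neither depth nor values per library can be given. CPM is relative to all reads of a library, and a change in total RNA per cell cannot be seen.

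Hsp70 proteins bind exposed hydrophobic stretches of unfolded or newly made proteins and release them through cycles of ATP binding and hydrolysis. J-domain proteins stimulate the hydrolysis, and exchange factors such as the Hsp110 proteins and Fes1 release the ADP that remains. The Ssa proteins are the general Hsp70s of the yeast cytosol, whereas the Ssb proteins sit at the ribosome and receive nascent chains, together with the atypical Hsp70 Ssz1 and its J-domain partner Zuo1. In yeast, the transcription factor Hsf1 recognises heat shock elements, which are repeats of GAA in alternating orientation, and Msn2 and Msn4 recognise the stress response element AGGGG.

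The family divided by role after heat shock. All 4 SSA genes, both SSE genes and FES1 were higher, and both SSB genes and SSZ1 were lower, at an adjusted p-value (FDR) under 0.05 in the deposited edgeR comparison. That is 7 of 10 members higher, where 38.6% of all genes were, and 3 lower, where 36.6% of all genes were. With a change of at least 2-fold as well, 6 members were higher and 2 lower, against 6.73% and 5.28% of all genes. The median log2 fold change was 1.61 over the members and 0.02 over all genes.

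Pieces of DNA upstream of 4 members are shown here because they hold the longest heat shock elements found in the family. The element was searched as 3 units in perfect spacing, GAANNTTCNNGAA or TTCNNGAANNTTC, in a window from 250 bases before to 50 bases after the annotated start codon. It was found in 3 members, SSA2, SSE1 and FES1, and in 0.783% of the 6001 promoters that could be read. Sequences are given 5′ to 3′ on the strand of the gene, from RefSeq assembly R64, with the element in capitals. The first 3 lines carry 10 bases on each side of the element. The 3 stretches lie at chrXII:97696-97728, chrXVI:352439-352471 and chrII:444842-444874, all on the minus strand. The SSA1 stretch (chrI:141670-141805, minus strand) lies further upstream, from base -374 to base -239, and was read only in a window of 500 bases added after the data were seen. Its matches at -364 and -359 overlap, and the other begins at -261.
SSA2: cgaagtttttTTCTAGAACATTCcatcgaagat
SSE1: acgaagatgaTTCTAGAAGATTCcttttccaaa
FES1: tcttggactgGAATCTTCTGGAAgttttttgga
SSA1: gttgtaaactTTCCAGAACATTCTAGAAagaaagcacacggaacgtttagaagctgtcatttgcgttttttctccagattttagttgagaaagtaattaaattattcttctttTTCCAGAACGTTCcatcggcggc

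The 4 members with these elements differed widely in response, with log2 fold changes of 3.84 for SSA1, 1.90 for SSA2, 1.32 for SSE1 and 0.89 for FES1. SSA4, the member with the highest fold change, held no such element in either window. A piece of 99 bases upstream of it is shown beside them (chrV:364326-364424, plus strand, from base -263 to base -165). Its capitals mark an element of 2 units at -253, which was reached only in the added window, and the stress response element at -179. Right after the first capitals, a further TTC and GAA follow at other spacings, which the search did not count. A longer element with uneven spacing is therefore not excluded.
SSA4: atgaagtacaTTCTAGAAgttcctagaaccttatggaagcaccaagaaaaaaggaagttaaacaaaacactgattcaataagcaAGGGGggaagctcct

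With the shorter element of 2 units (GAANNTTC or TTCNNGAA, which also lies inside the longer one), 6 members had a match in the first window: SSA1, SSA2, SSB2, SSE1, SSE2 and FES1. Such a match was found in 22.6% of all promoters. AGGGG or CCCCT was found in SSA1, SSA4, SSE2 and FES1, and in 21.6% of all promoters, and the FES1 match lay inside the coding sequence. SSA3, SSB1 and SSZ1 had no match to any of the 3 patterns, and no match says only that these letters are not in the window. Within 500 bases the longer element was found in 4 members and in 1.48% of promoters, the shorter in 7 members and 35.2%, and AGGGG or CCCCT in 3 members and 34.1%.

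**Figure D1:**
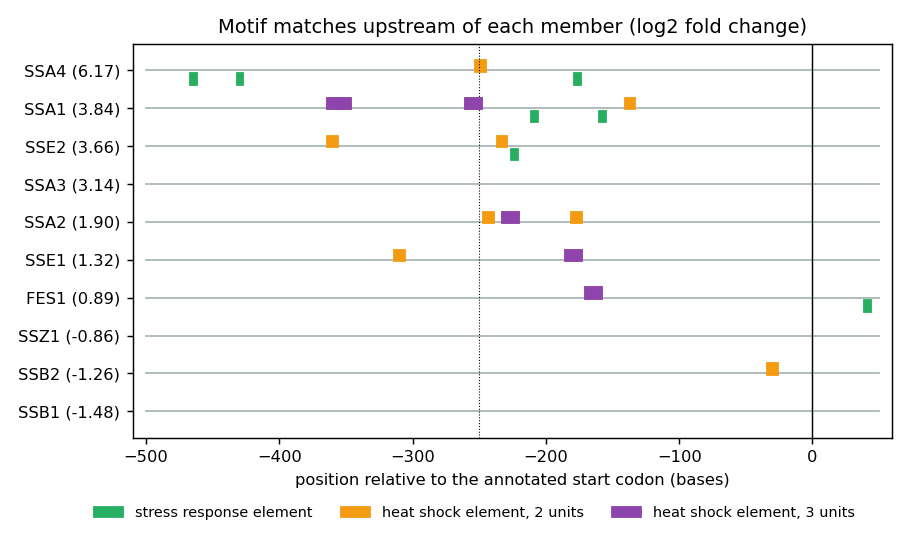
Matches to the heat shock element (3 units purple, 2 units orange) and to the stress response element (green) upstream of each member, by position in bases from the annotated start codon; the dotted line marks 250 bases. Members are ordered by log2 fold change, given in brackets, and SSA1 (3.84) holds the purple matches furthest upstream.

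SSA4 is known as a stress-inducible Hsp70 and had the highest fold change of the family. SSA4 lies at chrV:364589-366517 on the plus strand and, like every member, has 1 exon. Its level was derived as 3883 CPM in heat-shocked cells and 54.0 CPM under optimal growth, taking the deposited mean CPM as the plain mean of both groups. Read as a geometric mean, it gave 16702 CPM in heat-shocked cells and 232.0 CPM under optimal growth, so derived levels, unlike fold changes, depend on this reading. The totals over all genes, given with the processing, go better with the plain mean, which is the main reading here. The log2 fold change was 6.17, which is 72.0-fold and rank 3 of 5793 features. Its standard error was at most 0.16. This error is implied by the p-value, taken as two-sided, and it is an upper bound because the p-value was listed at 0, as for 58 features in all. SSA4 was thus among the rarest members under optimal growth and among the most abundant after heat shock.

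SSA1 (chrI:139503-141431, minus strand) encodes a general cytosolic Hsp70 that is made in unstressed cells and more so after stress. Its derived level was 4577 CPM after heat shock and 319.5 CPM under optimal growth, a log2 fold change of 3.84 (standard error at most 0.10, FDR listed at 0). SSA2 (chrXII:95566-97485, minus strand) encodes the near-identical Hsp70 that supplies most of the protein in unstressed cells. It had 4363 CPM after heat shock and 1171 CPM under optimal growth, and its log2 fold change was 1.90 ± 0.11 (implied standard error, FDR 9.04e-65). SSA2 thus had the smallest change of the 4 SSA genes. SSA3 (chrII:84499-86448, minus strand), another stress-inducible Hsp70, had 326.2 CPM after heat shock and 37.0 CPM under optimal growth, a log2 fold change of 3.14 (standard error at most 0.08, FDR listed at 0).

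In both pairs of SSA genes compared, the fold changes differed by more than their errors. The log2 fold change of SSA1 exceeded that of SSA2 by 1.94, with a 95% interval from 1.65 to 2.23. That of SSA4 exceeded that of SSA3 by 3.03, with an interval from 2.68 to 3.38. These intervals combine the implied errors as if they were independent, which is not known for genes measured in the same libraries. The errors of SSA1, SSA3 and SSA4 are upper bounds.

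**Figure D2:**
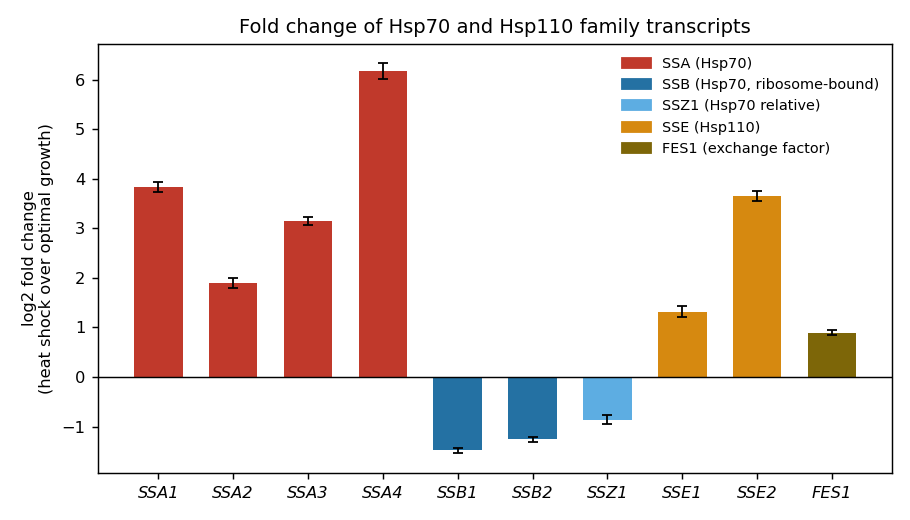
Log2 fold change of each member (heat shock over optimal growth), with bars of 1 implied standard error, which is an upper bound for SSA1, SSA3, SSA4 and SSE2. The 4 SSA genes, both SSE genes and FES1 lie above 0, and SSB1, SSB2 and SSZ1 lie below it.

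The separate values of SSA1 and SSA2 are uncertain because reads from one can match the other. Their coding sequences are 96.8% identical, with 61 bases that differ and an identical run of 383 bases, and the proteins are 98.1% identical. Of the 50-base words of SSA1, 57.9% occur in SSA2. How the authors assigned such reads is not stated. As a pair they had 8940 CPM after heat shock and 1490 CPM under optimal growth, a log2 ratio of 2.58, and this sum does not depend on how reads are divided between them, though it does on whether shared reads were dropped. SSA3 and SSA4 are 88.9% identical as proteins but only 77.6% as coding sequences, and none of their 50-base words occur elsewhere in the genome.

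The ribosome-bound Hsp70s went the other way. SSB1 (chrIV:44065-45906, plus strand) had 884.7 CPM after heat shock and 2472 CPM under optimal growth, a log2 fold change of -1.48 ± 0.06 (FDR 1.13e-134), so its level was 2.79-fold lower after heat shock. SSB2 (chrXIV:252059-253900, plus strand) had 808.4 CPM after heat shock and 1936 CPM under optimal growth, a log2 fold change of -1.26 ± 0.06 (FDR 1.04e-102). SSZ1 (chrVIII:225525-227141, minus strand), whose product forms the ribosome-associated complex with Zuo1, had 387.3 CPM after heat shock and 703.0 CPM under optimal growth, and fell by 0.86 ± 0.09 on the log2 scale (FDR 1.57e-21). SSB1 thus had the lowest fold change of the members, at rank 45 of 5793 from the bottom, and SSB2 was at rank 117 and SSZ1 at rank 404.

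SSB1 and SSB2 are almost one sequence. Their proteins are 99.3% identical, and 48 of the 1842 coding bases differ. The stretch of 60 bases with the most differences is shown because only bases that differ can tell their reads apart. It runs from coding base 1248 to 1307 and lies at chrIV:45312-45371 for SSB1 and chrXIV:253306-253365 for SSB2, both on the plus strand. The 11 bases that differ are in capitals.
SSB1: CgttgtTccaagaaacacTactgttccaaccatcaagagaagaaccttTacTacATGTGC
SSB2: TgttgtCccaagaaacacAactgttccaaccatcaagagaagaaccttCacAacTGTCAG

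Elsewhere the copies share an identical run of 563 bases, and 43.2% of the 50-base words of each gene occur in the other. SSB1 fell further than SSB2 by 0.22 on the log2 scale (95% interval of the difference from -0.39 to -0.06), and with that much shared sequence this small difference is uncertain. Their sum was 1693 CPM after heat shock and 4409 CPM under optimal growth.

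The SSB genes are known in yeast to be expressed in step with the genes of ribosomal proteins. Here 137 of 138 cytosolic ribosomal protein genes were lower and 0 higher, where 36.6% and 38.6% of all genes were. Their median log2 fold change was -1.15, with quartiles of -1.26 and -1.05. Of these genes, 8 had a lower fold change than SSB1, 34 a lower one than SSB2 and 127 a lower one than SSZ1. Many ribosomal protein genes are pairs of similar copies, so their single values are uncertain. The other factors that meet nascent chains were also lower, apart from BTT1. ZUO1 had a log2 fold change of -0.62 ± 0.10. EGD1 and EGD2, subunits of the nascent polypeptide-associated complex, were at -0.57 ± 0.05 and -0.67 ± 0.06. BTT1, a rare alternative subunit, was at 0.29 ± 0.11. Of these 4 genes, 3 were lower and 1 higher at FDR under 0.05, where 36.6% and 38.6% of all genes were.

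The exchange factors among the members were all higher, by different amounts. SSE1 (chrXVI:350194-352275, minus strand), the main Hsp110 of unstressed cells, had 2807 CPM after heat shock and 1125 CPM under optimal growth, a log2 fold change of 1.32 ± 0.11 (FDR 3.62e-35). SSE2 (chrII:573915-575996, minus strand), its inducible paralog, had 750.0 CPM after heat shock and 59.4 CPM under optimal growth, a log2 fold change of 3.66 (standard error at most 0.10, FDR listed at 0). SSE2 exceeded SSE1 by 2.34 on the log2 scale (95% interval from 2.06 to 2.62). The 2 proteins are 75.6% identical, and none of the 50-base words of either gene occur elsewhere in the genome. FES1 (chrII:443821-444693, minus strand), an exchange factor unrelated to Hsp110, had 295.1 CPM after heat shock and 158.8 CPM under optimal growth, a log2 fold change of 0.89 ± 0.05 (FDR 4.12e-61), the smallest of the members that rose.

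**Figure D3:**
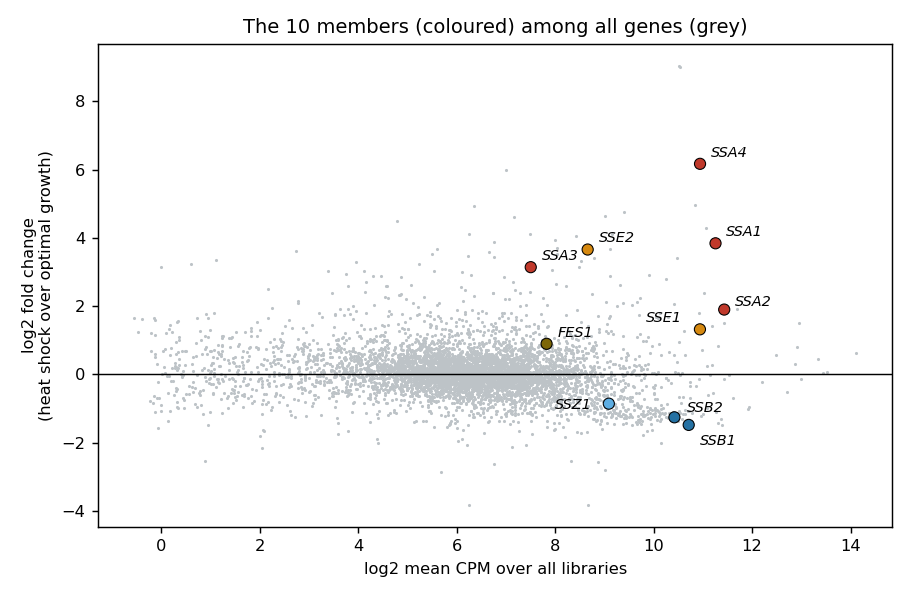
Log2 fold change (heat shock over optimal growth) against log2 mean CPM over all libraries, for the 10 members (coloured as SSA red, SSB blue, SSZ1 light blue, SSE orange, FES1 olive) and all other genes (grey). The members lie at log2 mean CPM of 7.50 to 11.43, above the median of 6.26 over all genes, and SSA4 lies at 6.17 on the vertical axis.

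To compare levels between genes, CPM was divided by gene length in kilobases. If reads shared by SSA1 and SSA2, or by SSB1 and SSB2, were dropped, the levels of these genes would be too low beside the rest. Whether such reads were dropped is not stated. After heat shock the order was SSA1 (2373 CPM per kilobase), SSA2 (2273), SSA4 (2013), SSE1 (1348), SSB1 (480.3), SSB2 (438.9), SSE2 (360.2), FES1 (338.0), SSZ1 (239.5) and SSA3 (167.3). Under optimal growth it was SSB1 (1342 CPM per kilobase), SSB2 (1051), SSA2 (609.8), SSE1 (540.5), SSZ1 (434.8), FES1 (181.9), SSA1 (165.7), SSE2 (28.5), SSA4 (28.0) and SSA3 (19.0). No spread of these levels is known, and the errors of the fold changes, used next as a rough guide, do not measure it. Neighbours not named next are therefore not shown to be separated. Set against the errors of the fold changes, the neighbours SSA1 and SSA2, SSA2 and SSA4, SSB1 and SSB2, and SSE2 and FES1 were not separated after heat shock. Under optimal growth, SSA2 and SSE1, FES1 and SSA1, and SSE2 and SSA4 were not. By derived level alone, without a known spread, SSB1 and SSB2 came first under optimal growth, and 3 SSA genes came first after heat shock. With a geometric mean these statements held, but the order changed. After heat shock SSA4 came first (8658 CPM per kilobase), before SSA1 (4804) and SSA2 (2782), and SSZ1 came last in place of SSA3. SSE2 (690.6) then lay above SSB1 (545.1) and SSB2 (481.4) after heat shock. Under optimal growth SSA4 (120.3 CPM per kilobase) lay above SSE2 (54.7), and SSA1 (335.4) above FES1 (190.7).

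**Figure D4:**
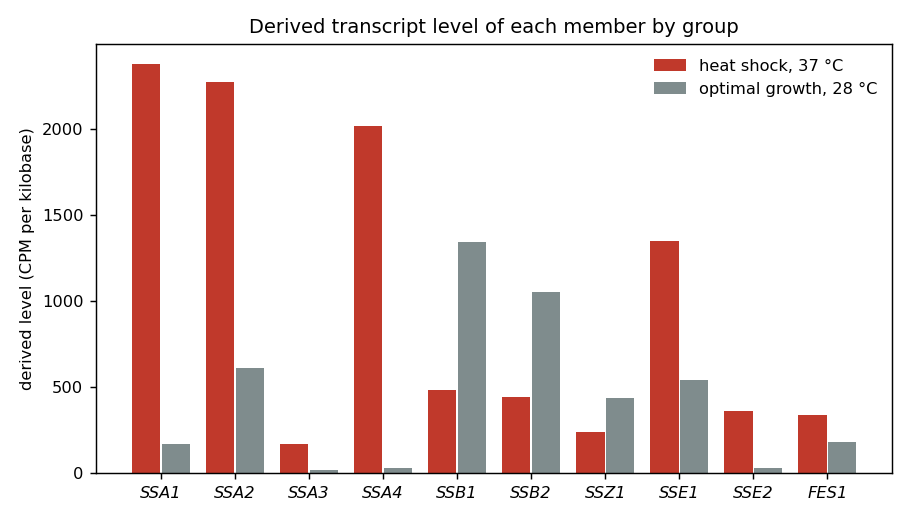
Derived level of each member in CPM per kilobase, in heat-shocked cells (red) and under optimal growth (grey), taking the mean CPM as a plain mean and without error bars because the table holds no values per library. SSA1, SSA2 and SSA4 reach 2013 to 2373 after heat shock, while SSB1 and SSB2 lead under optimal growth at 1342 and 1051.

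The make-up of the Hsp70 transcripts turned over. The 4 SSA genes made up 85.5% of the summed level of the 7 cytosolic Hsp70 genes after heat shock and 22.5% under optimal growth, and the 2 SSB genes made up 11.5% after heat shock and 65.6% under optimal growth. With a geometric mean the SSB genes made up 5.77% after heat shock and 61.3% under optimal growth. The ratio of the SSA sum to the SSB sum was 7.43 after heat shock and 0.344 under optimal growth, or 16.1 after heat shock and 0.461 under optimal growth with a geometric mean. Summed over the 7 genes, the level was 7984 CPM per kilobase after heat shock and 3651 CPM per kilobase under optimal growth, a ratio of 2.19, which was 4.08 with a geometric mean. The SSA sum alone was 6826 CPM per kilobase after heat shock and 822.4 CPM per kilobase under optimal growth, a ratio of 8.30, which was 13.4 with a geometric mean and 21.4 without SSA2.

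Within the SSA genes, SSA2 gave 33.3% of the sum after heat shock and 74.1% under optimal growth. SSA1 gave 34.8% after heat shock and 20.1% under optimal growth, and SSA4 gave 29.5% after heat shock and 3.40% under optimal growth. SSA3 gave 2.45% after heat shock and 2.31% under optimal growth. Within the Hsp110 pair, SSE2 gave 21.1% after heat shock and 5.02% under optimal growth. The Hsp70 sum was 4.67 times the Hsp110 sum after heat shock and 6.42 times under optimal growth, and this order turned with a geometric mean (8.16 times after heat shock and 6.69 times under optimal growth). The division between SSA1 and SSA2 rests on how the reads they share were assigned, which is not stated. If shared reads were dropped, SSA1, SSA2, SSB1 and SSB2 would be understated beside the other members. The share of SSA4, the ratio of SSA to SSB sums and that of Hsp70 to Hsp110 sums would then differ as well. The shares within the SSA genes also depend on reading the mean CPM as a plain mean. Read as a geometric mean, it put SSA2 at 16.8% after heat shock and 60.5% under optimal growth, and SSA4 at 52.4% after heat shock and 9.75% under optimal growth. SSA1 was then at 29.1% after heat shock and 27.2% under optimal growth, and SSA3 turned to 1.67% after heat shock and 2.54% under optimal growth. SSE2 was at 31.7% of the Hsp110 sum after heat shock and 8.38% under optimal growth.

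**Figure D5:**
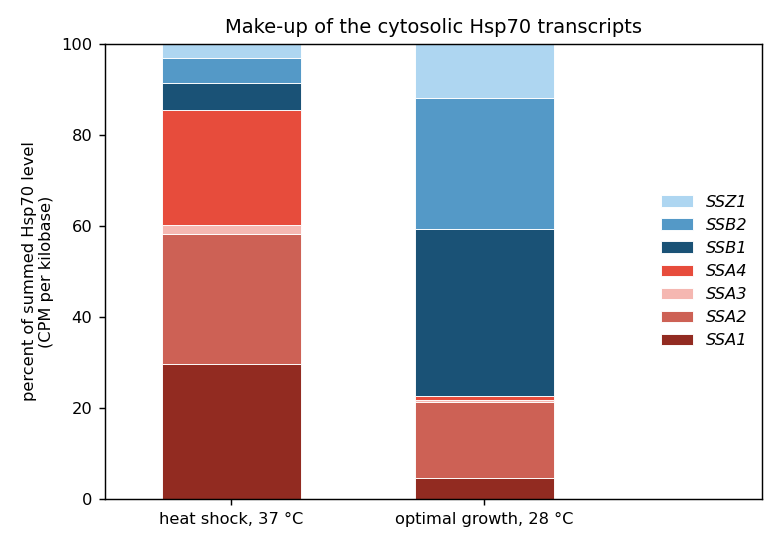
Share of each gene in the summed level (CPM per kilobase) of the 7 cytosolic Hsp70 genes, in heat-shocked cells (left) and under optimal growth (right), taking the mean CPM as a plain mean. The SSA genes (red) fill 85.5% of the left bar and 22.5% of the right one.

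The partners of the Hsp70s differed in direction. Of 12 J-domain cochaperones, 6 were higher and 6 lower, where 38.6% and 36.6% of all genes were. Their median log2 fold change was 0.01, so as a list they were split much as all genes were. SIS1, which directs Ssa proteins to aggregates and prions, had the highest value, at 2.00 ± 0.09 (980.1 CPM after heat shock and 244.5 CPM under optimal growth). YDJ1, the most general cytosolic J-domain protein, was at 0.96 ± 0.07. The next highest was XDJ1, at 0.28 ± 0.04. Lowest were ZUO1, given above, JJJ1 (-0.60 ± 0.05), which acts with Ssa proteins in maturation of the large ribosomal subunit, and JJJ3 (-0.55 ± 0.07), which acts in diphthamide synthesis.

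Of 6 chaperones that receive clients from Hsp70 or bridge to it, 4 were higher, where 38.6% of all genes were. HSP82 (Hsp90) was at 4.97 ± 0.16, HSP104 (the disaggregase that works with Hsp70) at 4.29 with an error of at most 0.11, STI1 (which links Hsp70 to Hsp90) at 2.78 ± 0.12, and HSC82 (the constitutive Hsp90) at 1.93 ± 0.14. HSP82 and HSC82 are similar copies, so their separate values are less certain. The other 2 were lower, where 36.6% of all genes were. CNS1, a cochaperone of Hsp90, was at -0.39 ± 0.07. SNL1, an exchange factor bound to the ER membrane, was at -0.83 ± 0.06. SNL1 thus differed in direction from the exchange factors SSE1, SSE2 and FES1.

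The Hsp70s of other compartments had smaller fold changes than SSA1, SSA3 and SSA4. KAR2, the Hsp70 of the endoplasmic reticulum, was at 1.80 ± 0.14 and SSC1, that of the mitochondrial matrix, at 0.96 ± 0.10. Of the 7 genes of this list, 4 were higher (also ECM10 at 0.47 ± 0.10 and SSQ1 at 0.43 ± 0.09), where 38.6% of all genes were. MGE1 and LHS1 were lower, at -0.50 ± 0.05 and -0.30 ± 0.08, where 36.6% of all genes were. SIL1 was not called, at -0.04 ± 0.06. MGE1 and SIL1 are exchange factors of these compartments, and LHS1 is the Hsp110 relative of the endoplasmic reticulum, so no exchange factor of this list was higher.

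The transcription factors had smaller fold changes than the SSA genes. HSF1 was at 0.78 ± 0.05 and MSN2 at 0.35 ± 0.04, both higher, and MSN4 was not called, at -0.05 ± 0.09. Of 16 chaperone and quality control genes linked to Hsf1, some of them named above, 15 were higher, where 38.6% of all genes were. The J-domain gene APJ1 was the 1 lower gene, at -0.44 ± 0.06, where 36.6% of all genes were lower. The median of that list was 2.19. HSP82, HSP42 and HSP104 were its highest members, and HSP42, a small heat shock protein, was at 4.65 with an error of at most 0.12. The paper prints a somewhat higher RNA-Seq log2 fold change for HSP42 than this deposited value. After APJ1, the lowest were YDJ1 and the transcription coactivator MBF1, which was at 1.13 ± 0.07.

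The genes nearest to SSA4 in log2 fold change, among 4580 other genes that had log2 mean CPM values of 5 or more, were SOL4 at 5.99 and HSP82 at 4.97. SSA4 thus had few neighbours. Those nearest to SSB1 were BCP1 and GDH1, both at -1.47. This likeness rests on 1 comparison of 6 libraries.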

How the data were processed

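RNA-Seq was done on 3 heat-shocked and 3 optimally grown libraries, stranded and from polyadenylated RNA. The authors aligned reads with kalign to the masked yeast genome and compared the groups with the Trinity edgeR pipeline. The submitters' processing notes name R64, sacCer3, Picard and edgeR. The deposited log2 values are the log2 fold change and the log2 mean CPM of each gene. The deposited p-value and its adjusted form (FDR) come from the same comparison. All results here therefore start from the authors' own comparison, used as deposited. The read counter, its use of strand and of multiply matching reads, the filter on low counts, the test and its dispersion are not given in the sources used here. Depth per library is unknown. The direction was read as the table's first sample name (heat) over its second (norm).

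FDR values were recomputed from the p-values by Benjamini-Hochberg and matched. Standard errors were taken as the absolute log2 fold change over the normal quantile of the p-value taken as two-sided. CPM per group was derived from the fold change and the mean CPM taken as a plain mean. The mean CPM summed to 1000910 over all genes, and the derived CPM to 983644 (heat shock) and 1018170 (optimal growth). Under a geometric mean these sums would be 1130360 and 1059620. CPM has a fixed total per library, and both of these sums lie further from that total. Closeness to the sum of the mean CPM says nothing here, because the plain-mean sums average to it by construction. The plain mean thus goes better with a fixed total, and the geometric values only show the dependence on it. Symbols, coordinates and sequences came from RefSeq assembly R64. IDs matched by locus tag (5715), by symbol (76) or not at all (2). All members have 1 exon, and none overlaps another annotated gene. Coding sequences were aligned globally with Biopython (proteins with BLOSUM62). Identity is over aligned positions without gaps. Motifs were counted on both strands, overlaps included. The code was tested on simulated data.

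The members and lists were chosen with earlier results of these data known. All 10 members are named. Of the lists, the text names set partners whatever their values, the 3 highest and 3 lowest called genes at most, and the 2 genes nearest to SSA4 and SSB1 in fold change. Alternatives were other thresholds and adjustments, filters on low values, 3 scalings, a geometric mean, other word lengths and other motif windows. SSQ1 and SIL1 were named after their values were seen. Biopython 1.88, scipy 1.17.1, numpy 2.4.6, pandas 2.3.3 and matplotlib 3.10.9 were run under Python 3.11.15.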

Additional observations from a re-analysis of the deposited data

How the results depend on the processing

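All 10 members kept their direction and their call under FDR 0.01 and 0.001, Bonferroni, Benjamini-Yekutieli, log2 mean CPM of at least 1 or 5, protein-coding genes alone and the 3 scalings, which moved log2 fold changes by -0.02, 0.003 and 0.05. These settings could hardly have changed a call. The largest p-value of a member in the edgeR comparison was 3.78e-22 (SSZ1), and the lowest log2 mean CPM was 7.50. A minimum of 2-fold gave 6 higher and 2 lower. No paired analysis was possible because only group-level values were at hand, and a refit with DESeq2, another filter on counts or 1 replicate fewer was not run for that reason. Whether 1 library decides a value is unknown.

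The derived sums and shares depend on how levels were derived, by construction. With a geometric mean, the SSA sum was 16520 CPM per kilobase after heat shock and 1234 under optimal growth (ratio 13.4), and the sum of the 7 Hsp70 genes was 17797 and 4364 (ratio 4.08). Without SSA2, which had the highest level summed over both groups, these sums were 4553 and 212.6 (ratio 21.4), and 5712 and 3041 (ratio 1.88). As CPM per gene they were 13150 and 1581, and 15230 and 6693. Shares of the SSA sum with a geometric mean were 29.1% after heat shock and 27.2% under optimal growth for SSA1, 16.8% and 60.5% for SSA2, 1.67% and 2.54% for SSA3, and 52.4% and 9.75% for SSA4. Without SSA2 they were 52.1% and 77.9% for SSA1, 3.67% and 8.92% for SSA3, and 44.2% and 13.2% for SSA4. Words of 30 to 100 bases gave shared portions of 63.9% to 45.8% for SSA1 and 58.7% to 31.8% for SSB1, and none for the 6 members without a near-identical copy. The element of 3 units was found in 3 members without the bases after the start codon and in 4 within 500 bases.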
